A study of Arabidopsis thaliana with 6 samples.

Results

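Of 23937 genes tested on chromosomes 1 to 5 of Arabidopsis thaliana seedlings, 45 stood near silence in the fhy1-1 mutant and were present at higher levels in a line carrying a GFP-FHY1 transgene. They were chosen by their levels in the authors' deposited table. A gene was taken when its level was above 0 and below 1 FPKM in fhy1-1, at least 1.5 FPKM in the transgenic line, and at least 4 times higher in the transgenic line than in fhy1-1. FPKM counts sequenced fragments per length of transcript and per depth of sequencing, so levels can be compared between genes. Because the levels and their ratio chose the genes, both are given as descriptions and support no test.

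RNA prepared by the Illumina mRNA protocol was sequenced from 4-day-old seedlings of 2 genotypes with 3 libraries each, 6 in all. The first genotype was fhy1-1. The second was fhy1-1 carrying 35S:GFP-FHY1, a fusion of green fluorescent protein to FHY1 behind the strong viral 35S promoter, which is active in most tissues. Both genotypes therefore lacked normal endogenous FHY1 function, and both had the light regime coded D4d+FR3h in the labels. FR is the usual abbreviation for far-red, and FR3h was read as 3 hours of it. The labels do not spell the code out. No wild type and no seedlings kept without far-red are among the samples. A return of FHY1 function, an excess of FHY1 and a position effect of the transgene cannot be told apart, and the labels do not give the number of independent transgenic lines.

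FHY1 is a small shuttle protein by which phytochrome A, the photoreceptor for far-red light, moves from the cytoplasm into the nucleus. In the nucleus, phytochrome A removes or inhibits repressors of light responses, and seedlings open their cotyledons, make anthocyanin and slow the stretching of their stem. Many of the genes that respond encode transcription regulators such as B-box and MYB proteins, enzymes of pigment synthesis, and enzymes that make or break down hormones. Mutants without FHY1 stay long in far-red light.

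The deposited table holds 1 combined level per gene and genotype, so no SD can be given and the depth of each library is unknown. Errors below are standard errors of the log2 difference that the authors' own statistic implies, and a gene is called when the authors' q is below 0.05. FHY1 itself stood at 18.95 FPKM without the transgene and at 195.9 FPKM with it, 10.3 times higher. Markers of green tissue summed to 5017 FPKM without the transgene and 7452 FPKM with it, with 5 of 6 called higher, and markers of seed storage fell from a sum of 144.7 to 39.9 FPKM, with 8 of 8 called lower. Summed markers of root were 51.6 and 50.8 FPKM over the 5 of 6 found, with 1 called higher (SHR) and 1 lower (GL2). Those of the stomatal lineage were 26.7 and 27.1 FPKM and those of the shoot meristem 3.01 and 3.32 FPKM, with none called in either. No marker found in these lists was at 0 in either genotype. In whole seedlings, more cells of a type and more RNA per cell cannot be told apart, and the part that green or seed tissue has in the results below was not tested.

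The 45 genes ranged from 0.0434 to 0.977 FPKM in fhy1-1, with a median of 0.453 FPKM. In the GFP-FHY1 line they ranged from 1.77 to 14.3 FPKM, with a median of 3.31 FPKM against 7.04 FPKM over all tested genes. They were therefore low to middling transcripts even where they were present, with 9 at 5 FPKM or more and 20 below 3 FPKM. The log2 difference ran from 2.01 to 6.93 with a median of 2.95, and the median over all tested genes was -0.05. By the authors' deposited table, 41 of the 45 were called higher, where 9.92% of all tested genes were called higher. The rule used that same contrast, so nothing is read from this count. At q below 0.01 the calls were 39 (8.23% of all tested genes) and by Bonferroni 30 (5.3%). How much spread between libraries the authors' error holds is not known. With an assumed spread between libraries of 20% added to it, 38 were called (2.42% of all tested genes), and with 50%, 16 (0.209%). Among the 4644 tested genes above 0 and below 1 FPKM in fhy1-1, 89 reached 1.5 FPKM in the GFP-FHY1 line, and 2.69% were called higher.

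**Figure D1:**
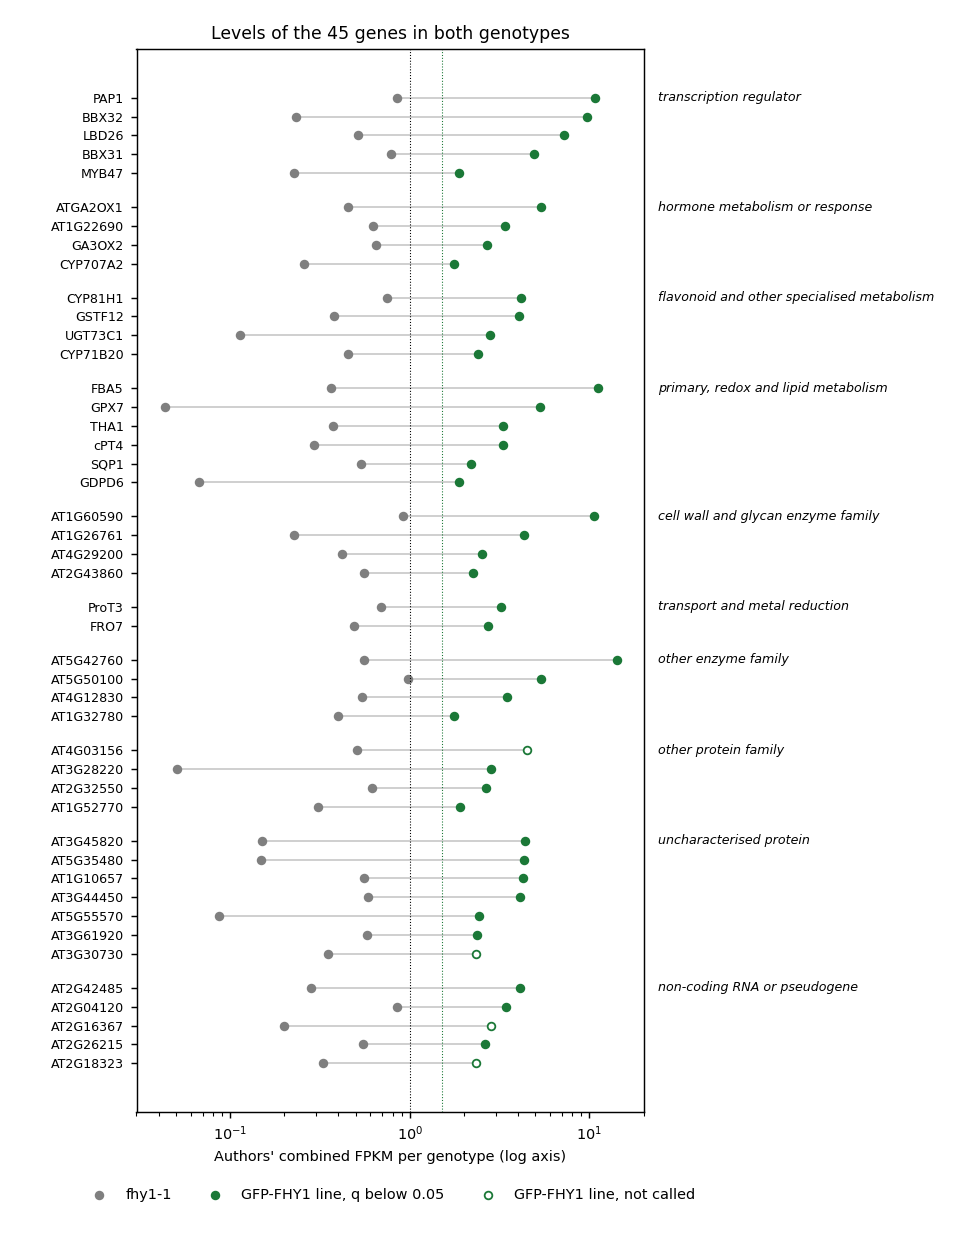
Levels of the 45 genes in fhy1-1 (grey) and in the GFP-FHY1 line (green), 1 combined FPKM value per genotype on a log axis, grouped by the role of the product. Dotted lines mark 1 FPKM and 1.5 FPKM, the limits of the rule, and open circles mark the 4 genes that the authors' test did not call.

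The rule leaves similar genes just outside it. On the fhy1-1 side, AT5G50100 stood just inside at 0.977 FPKM and SDR1 just outside at 1.03 FPKM. By level in the transgenic line, AT1G32780 was the lowest inside at 1.77 FPKM and AT1G50470 the highest outside at 1.39 FPKM. By ratio, the pectin lyase family gene AT2G43860 was the nearest inside at 4.02 and the zinc finger gene AT5G66270 the nearest outside at 3.77. The level in fhy1-1 thus had close neighbours on both sides, whereas no gene that met the other 2 limits lay between 1.39 and 1.77 FPKM in the transgenic line.

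Promoter sequence is shown for 5 of the genes that hold 1 of a pair of motifs before the start, whichever annotated start is used. Both motifs are known in light-regulated or clock-regulated plant genes. The G-box, CACGTG, is bound by bHLH and bZIP regulators of light responses, and the evening element, AAAATATCT, is bound by MYB-like proteins of the circadian clock. Not shown are AT4G03156, whose G-box lies after its start, and FBA5, whose upstream sequence overlaps another annotated gene. Each run is 250 bases, overlaps no other annotated gene, and ends at the base before the more upstream of the gene starts in the deposited table and in the RefSeq annotation. It reads from 5′ to 3′ on the strand of the gene, from the TAIR10.1 RefSeq genome. Capitals mark the G-box in the first 3 and the evening element, read on the opposite strand, in the other 2. AT1G26761 has chr1:9251660-9251909 on the minus strand, FRO7 has chr5:20208778-20209027 on the minus strand and AT5G50100 has chr5:20371548-20371797 on the plus strand. UGT73C1 has chr2:15412065-15412314 on the minus strand and CYP71B20 has chr3:9580114-9580363 on the minus strand.
AT1G26761: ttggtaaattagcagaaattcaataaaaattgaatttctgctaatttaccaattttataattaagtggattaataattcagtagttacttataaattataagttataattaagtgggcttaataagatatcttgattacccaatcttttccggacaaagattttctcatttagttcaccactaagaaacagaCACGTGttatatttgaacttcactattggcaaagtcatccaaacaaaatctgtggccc
FRO7: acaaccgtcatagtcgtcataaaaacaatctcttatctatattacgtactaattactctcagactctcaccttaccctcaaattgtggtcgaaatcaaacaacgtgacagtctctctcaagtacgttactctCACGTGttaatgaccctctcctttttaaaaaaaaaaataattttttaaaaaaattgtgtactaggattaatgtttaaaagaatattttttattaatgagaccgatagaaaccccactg
AT5G50100: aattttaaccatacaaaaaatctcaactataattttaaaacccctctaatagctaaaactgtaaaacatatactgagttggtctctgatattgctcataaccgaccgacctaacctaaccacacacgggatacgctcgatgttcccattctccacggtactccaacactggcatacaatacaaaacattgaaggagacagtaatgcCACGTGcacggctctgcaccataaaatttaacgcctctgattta
UGT73C1: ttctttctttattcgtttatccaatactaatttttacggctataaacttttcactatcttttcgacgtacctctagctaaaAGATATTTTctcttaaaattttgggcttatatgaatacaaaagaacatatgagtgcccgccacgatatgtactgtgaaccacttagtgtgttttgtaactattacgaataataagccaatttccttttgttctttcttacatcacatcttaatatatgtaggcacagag
CYP71B20: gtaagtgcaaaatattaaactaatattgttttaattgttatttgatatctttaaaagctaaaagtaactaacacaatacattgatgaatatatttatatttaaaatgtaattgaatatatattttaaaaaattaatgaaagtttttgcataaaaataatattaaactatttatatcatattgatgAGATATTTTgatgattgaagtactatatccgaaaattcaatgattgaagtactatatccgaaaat

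In windows from 250 bases before to 50 bases after the start in the deposited table, 6 of 45 promoters (13.3%) held a G-box, against 8.77% of all 23863 tested genes with a window and 14.2% of the genes called higher. Among genes above 0 and below 1 FPKM in fhy1-1 the share was 6.65%. The 6 were PAP1, BBX31, FRO7, AT5G50100, AT1G26761 and AT4G03156. Counted from the table's start, the G-box began 103 bases before it in PAP1, 91 in BBX31, 165 in FRO7, 99 in AT5G50100 and 73 in AT1G26761, and 19 bases after it in AT4G03156. With the starts of the RefSeq annotation, the count was 5 (11.1% against 8.35% of tested genes), without PAP1 and BBX31, whose G-boxes then lie inside the annotated transcript, and with AT3G28220. The evening element was in 4 promoters (8.89%, against 2.66% of tested genes), those of FBA5, UGT73C1, CYP71B20 and the uncharacterised gene AT1G10657. With RefSeq starts it was in 3 (6.67% against 2.87%), and the FBA5 copy is then another one, on the opposite strand and further upstream, in a stretch that overlaps another gene of the RefSeq annotation.

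The other motifs were searched on both strands in the same windows. The I-box, GATAAG, was in 8 promoters (17.8%, against 15.6% of tested genes) from the table's starts and in 14 (31.1% against 14.8%) from the RefSeq starts. The TATA box, TATAAA, was in 25 (55.6% against 49.7%) and 22 (48.9% against 51.5%). An ABRE-like element, ACGTGGC, was in 1 promoter, that of AT5G50100, where it overlaps the G-box printed above, against 4.9% of tested genes and 10.8% of the genes called higher. From the RefSeq starts it was in 2, AT5G50100 and CYP81H1, a share of 4.44% that equals the 4.44% of tested genes. The binding site of FHY3 and FAR1, CACGCGC, was in 0 of 45 from either start, where 1.84% of tested genes held it from the table's starts and 1.51% from the RefSeq starts. No test of these shares was made, most of them rest on few members, and a match is only a match of letters.

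**Figure D2:**
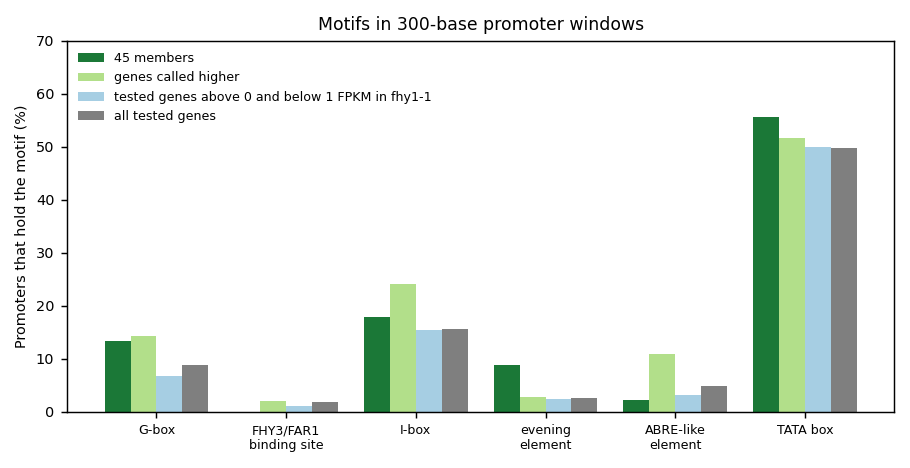
Share of 300-base promoter windows (%) that hold each of 6 motifs on either strand, for the 45 genes, the genes called higher, the tested genes above 0 and below 1 FPKM in fhy1-1 and all tested genes, with starts from the deposited table. The 45 genes are close to the genes called higher for the G-box and above the other sets for the evening element, a bar that stands for 4 genes.

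Transcription regulators made up 5 of the 45 genes. PAP1, the MYB factor that switches on anthocyanin synthesis, stood at 0.848 FPKM in fhy1-1 but 10.7 FPKM with the transgene, a log2 difference of 3.65 ± 0.36 (SE implied by the authors' statistic). It lies on chromosome 1, 21233595 to 21235137 (TAIR10, minus strand). BBX32 and BBX31 are small B-box zinc finger proteins that lack the second B-box of their relatives and are known to restrain seedling light responses. BBX32 (chromosome 3, 7412636 to 7413539) went from 0.233 to 9.70 FPKM, 41.6 times higher, with a log2 difference of 5.38 ± 0.65. BBX31 (chromosome 3, 7709113 to 7709733) went from 0.784 to 4.93 FPKM, 6.29 times higher. The LOB-domain factor LBD26 stood at 0.513 and 7.19 FPKM, and MYB47 at 0.225 and 1.87 FPKM.

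The relatives compared for the B-box genes and for MYB47 stood above 1 FPKM in fhy1-1, and those for PAP1 stood below it. Relatives of LBD26 were not compared. BBX28, BBX29 and BBX30, the other B-box proteins with a single box that were compared, stood at 33.1, 3.04 and 3.83 FPKM in fhy1-1. In the GFP-FHY1 line BBX28 was at 36.5 FPKM and not called, BBX29 at 5.31 FPKM and BBX30 at 9.80 FPKM, both called higher. In the GFP-FHY1 line BBX30 and BBX32 thus had nearly equal levels, from fhy1-1 levels that lay far apart. MYB90, the nearest paralogue of PAP1, rose from 0.117 to 0.876 FPKM, a ratio of 7.46 that stayed under the level limit, and MYB113 and MYB114 were listed at 0 in both genotypes and not tested. MYB95, the relative of MYB47, rose from 1.205 to 2.64 FPKM.

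Hormone metabolism and response accounted for 4 genes. GA2OX1, which inactivates gibberellins, went from 0.454 to 5.34 FPKM, a log2 difference of 3.55 ± 0.41. GA3OX2, which makes the active forms, went from 0.649 to 2.67 FPKM, a log2 difference of 2.04 ± 0.39. Genes for removing and for making active gibberellin were thus both in the group, on chromosome 1 at 29511599 to 29513051 and 30200693 to 30202200. CYP707A2, an enzyme that breaks down abscisic acid and is best known from imbibed seeds, stood at 0.256 and 1.77 FPKM. AT1G22690, of the gibberellin-regulated (GASA) peptide family, stood at 0.623 and 3.39 FPKM.

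Other enzymes of the same steps ranged in fhy1-1 from far above the members to below them. GA3OX1 stood at 31.1 FPKM in fhy1-1 and fell to 27.4 FPKM, so that GA3OX2 added little to the summed level of both. Among gibberellin 2-oxidases, GA2OX2 rose from 4.13 to 12.4 FPKM and GA2OX6 fell from 16.2 to 13.7 FPKM, and GA2OX8 stood at 3.02 and 2.56 FPKM without a call. GA2OX4, at 0.145 and 0.272 FPKM, lay below GA2OX1 in fhy1-1 and GA2OX7, at 0.543 and 1.07 FPKM, lay close to it, neither called. GA2OX3 and CYP707A4 were not tested, at 0.0238 and 0.0318 FPKM in fhy1-1, and GA3OX4 stood at 0.0518 FPKM there, was listed at 0 with the transgene and was not called. CYP707A1 and CYP707A3 stood at 15.3 and 4.38 FPKM in fhy1-1, and with the transgene at 14.3 and 3.68 FPKM, neither called. Over a list of 32 tested gibberellin and GASA genes, 4 were called higher (12.5%) and 7 lower. Of all tested genes, 9.92% were called higher and 12.9% lower. The list had a median log2 difference of -0.04, and the 2 members GA2OX1 and GA3OX2 were among the 4. AT1G22690 was not in the list, which is thus not complete for the family.

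Enzymes of flavonoid and other specialised metabolism were 4 of the 45. GSTF12, a glutathione transferase family protein needed to bring anthocyanin into the vacuole, stood at 0.376 and 4.06 FPKM, a log2 difference of 3.43 ± 0.60. Of 31 tested flavonoid and anthocyanin genes, 20 were called higher (64.5%, beside 9.92% of all tested genes) and 1 lower (beside 12.9%). Their median log2 difference was 1.66, and GSTF12 and PAP1 were the 2 that met the rule. The glucosyltransferase UGT73C1, whose upstream sequence is printed above, went from 0.112 to 2.81 FPKM, 25.0 times higher. Its relative DOGT1 rose from 4.65 to 12.3 FPKM, while UGT73C6 stood at 0.166 and 0.403 FPKM and was not called. The cytochromes P450 CYP81H1 and CYP71B20, both without a role given in the annotation used, stood at 0.741 and 4.16 FPKM and at 0.453 and 2.401 FPKM.

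Primary, redox and lipid metabolism held 6 genes. FBA5, a fructose-bisphosphate aldolase of the sugar-splitting step of glycolysis, stood at 0.361 and 11.2 FPKM, 30.9 times apart, with a log2 difference of 4.95 ± 0.44. GPX7, a glutathione peroxidase, had the lowest fhy1-1 level of the group and the largest ratio, 0.0434 FPKM against 5.28 FPKM, 122 times apart. Its log2 difference of 6.93 carries a standard error of 1.81, so the size of that ratio is poorly fixed. The glycerophosphodiester phosphodiesterase GDPD6 stood at 0.0670 and 1.87 FPKM, a ratio of 28.0. The threonine aldolase THA1 stood at 0.373 and 3.31 FPKM. The cis-prenyltransferase cPT4 was at 0.293 and 3.304 FPKM, and the squalene epoxidase relative SQP1 at 0.537 and 2.201 FPKM.

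For the aldolases, glutathione peroxidases, squalene epoxidases and threonine aldolases, at least 1 other gene of the family stood well above 1 FPKM in fhy1-1. The aldolase FBA8 stood at 711 FPKM in fhy1-1 and fell to 573 FPKM, FBA1 rose from 52.4 to 179 FPKM and FBA2 from 227 to 366 FPKM, and FBA7, next to FBA5 on chromosome 4, stood at 3.42 and 4.31 FPKM without a call. Glutathione peroxidases other than GPX7 ranged from 0.235 FPKM for GPX4 to 246 FPKM for GPX2 in fhy1-1, and GPX1, GPX2 and GPX6 were called higher and GPX5 and GPX8 lower. Among squalene epoxidases, SQE3 rose from 26.5 to 62.3 FPKM and SQE6 from 1.04 to 3.90 FPKM, a ratio of 3.76 beside 4.096 for SQP1. The second threonine aldolase, THA2, stood at 9.61 and 10.8 FPKM and was not called.

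**Figure D3:**
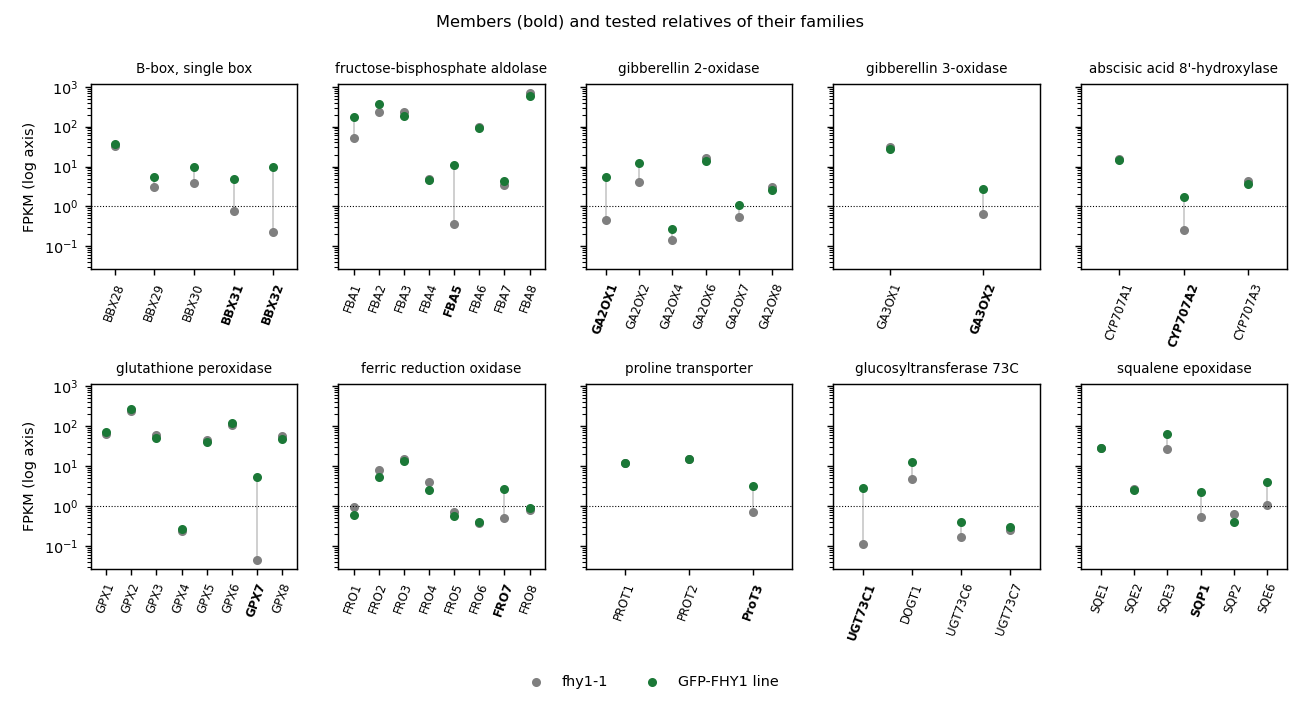
Levels of members (bold) and their tested relatives in 10 gene families, 1 combined FPKM per genotype on a log axis, with a dotted line at 1 FPKM. Members such as FBA5 and GPX7 start well below relatives that stand at up to 711 FPKM in fhy1-1, and genes with a level of 0 in either genotype are not drawn.

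Over 16 families that hold 17 of the 45 genes, 53 tested relatives could be compared. Of these, 15 were called higher (28.3%, beside 9.92% of all tested genes) and 9 lower (17.0%, beside 12.9%). Their median log2 difference was 0.03, and 40 of the 53 stood at 1 FPKM or more in fhy1-1. Most tested genes did so too, since 4644 of 23937 were above 0 and below 1 FPKM there. The rule itself placed every member below 1 FPKM. A ratio of at least 4 was found for 2 of the 53 relatives, MYB90 and AT3G52740. It was found for 532 of all 23937 tested genes, with genes at 0 in fhy1-1 counted in. The families were put together with the results known, so these counts describe them and say nothing of other families.

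Enzymes of the cell wall and of glycans numbered 4. AT1G60590, of the pectin lyase-like superfamily, went from 0.910 to 10.6 FPKM, a log2 difference of 3.55 ± 0.22, the smallest error of the group. AT1G26761, annotated with the arabinanase, levansucrase and invertase fold, went from 0.226 to 4.31 FPKM. The beta-galactosidase related gene AT4G29200 stood at 0.417 and 2.52 FPKM, and AT2G43860, also pectin lyase-like, at 0.555 and 2.23 FPKM. On chromosome 1, AT1G60590 spans 22314170 to 22316970 and AT1G26761 spans 9250224 to 9251644, both on the minus strand.

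Transport and metal reduction gave 2 genes. FRO7, a reductase that supplies iron to chloroplasts, stood at 0.490 and 2.71 FPKM, a log2 difference of 2.47 ± 0.27, and its upstream G-box is printed above. None of the other 7 ferric reductases tested was called higher, and FRO2, FRO3 and FRO4 were called lower, FRO2 from 8.10 to 5.32 FPKM. FRO6, the tandem neighbour and closest relative of FRO7, stood at 0.381 and 0.404 FPKM. The proline transporter ProT3 stood at 0.694 and 3.21 FPKM, while PROT1 at 12.1 and 12.1 FPKM and PROT2 at 15.4 and 14.7 FPKM were not called.

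A further 4 genes encode other enzyme families. AT5G42760, annotated as a leucine carboxyl methyltransferase, reached the highest level of the group, 14.3 FPKM against 0.557 FPKM in fhy1-1, a log2 difference of 4.68 ± 0.42. AT5G50100, a putative thiol-disulfide oxidoreductase whose promoter is printed above, stood at 0.977 and 5.36 FPKM. The alpha/beta-hydrolase AT4G12830 was at 0.540 and 3.46 FPKM, and the zinc-binding dehydrogenase AT1G32780 at 0.396 and 1.77 FPKM. Other protein families gave AT3G28220, a TRAF-like gene at 0.0507 and 2.84 FPKM, 56.1 times apart. They also gave the small GTPase-like AT4G03156, the Rcd1-like AT2G32550 and AT1G52770, of the NPH3 family that holds signalling proteins of phototropism, which stood at 0.308 and 1.91 FPKM.

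For 7 protein-coding genes the product description in the annotation used gives no role, which does not mean that none is known. Their levels ran from 0.0868 to 0.584 FPKM in fhy1-1 and from 2.33 to 4.39 FPKM in the GFP-FHY1 line. AT5G35480 stood at 0.148 and 4.33 FPKM, 29.3 times apart, and AT3G45820 at 0.1502 and 4.39 FPKM, 29.2 times apart. Both had an implied standard error near that of GPX7, 1.81 and 1.82 on the log2 scale. AT5G55570 stood at 0.0868 and 2.44 FPKM, a ratio of 28.1. AT3G44450 stood at 0.584 and 4.09 FPKM, and its relative AT3G52740 rose from 1.51 to 16.8 FPKM, 11.1 times, which kept it outside the group by its fhy1-1 level alone. AT1G10657, AT3G30730 and AT3G61920, the last described in the annotation only as UvrABC system protein C, complete the 7.

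Transcripts that code for no protein were 5 of the 45. Thus 88.9% of the group was protein-coding, against 94.5% of tested genes and 86.6% of those above 0 and below 1 FPKM in fhy1-1. All 5 lie on chromosome 2, which holds 22.8% of the 1315 tested genes that are not annotated as protein-coding. Tested genes absent from the annotation are counted among these 1315 and as not protein-coding in the shares above. AT2G42485, annotated as a non-coding RNA, stood at 0.282 and 4.11 FPKM. The other 4, AT2G04120, AT2G16367, AT2G26215 and AT2G18323, are annotated as pseudogenes, and reads from intact relatives could be counted in them.

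The 4 genes that the authors' test did not call were AT4G03156, AT3G30730 and the pseudogenes AT2G16367 and AT2G18323. In the authors' deposited table their q-values were 0.223, 0.592, 0.351 and 0.551. Their annotated transcripts were 213 to 742 bases long, with a median of 330 bases against 1328 bases for the 41 called. The standard error of the log2 difference ran from 1.75 to 2.75 for them and had a median of 0.45 for the called genes. Whether these 4 differ between the genotypes is thus not shown by these data.

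Of 16 gene lists that cover light responses, pigments, hormones, cell walls and stress, 4 contained a member. In a list were 7 of the 45 genes and 509 of the 23937 tested genes. Of all tested genes, 9.92% were called higher and 12.9% lower. The light signalling and B-box list had 32 of 59 tested genes called higher and 7 lower, with BBX31 and BBX32 as members. The carbon fixation and sugar list had 17 of 34 higher and 7 lower, with FBA5 as its member. By contrast, all 40 tested light-harvesting and photosystem genes were called higher, with a median log2 difference of 1.38, and none met the rule. The tetrapyrrole and carotenoid list (21 of 28 higher) and the clock list (14 of 23 higher) held no member either. The remaining 9 lists without a member ranged from 9.09% to 46.4% called higher.

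The 45 genes were spread over all 5 chromosomes. Chromosome 1 held 11 (24.4%, against 26.4% of tested genes), chromosome 2 held 10 (22.2% against 15.8%), chromosome 3 held 9 (20% against 19.7%), chromosome 4 held 6 (13.3% against 15.1%) and chromosome 5 held 9 (20% against 23.1%). All 5 non-coding members are among the 10 on chromosome 2. On strand, 28 lay on the minus strand and 17 on the plus strand, so 62.2% were on the minus strand against 50% of tested genes.

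**Figure D4:**
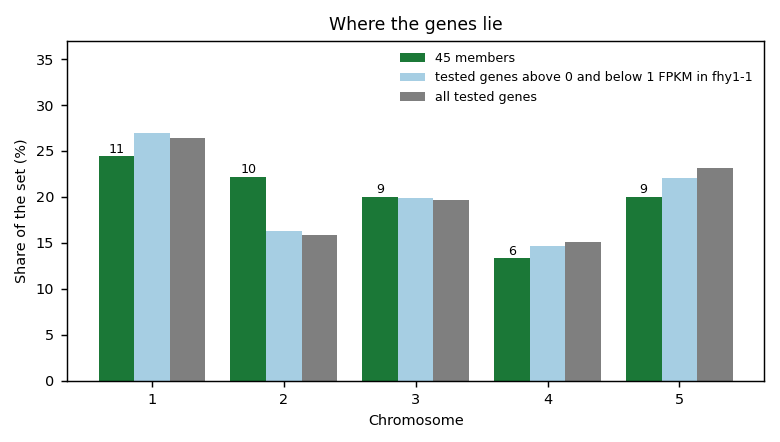
Share of each set (%) on chromosomes 1 to 5 for the 45 genes, the tested genes above 0 and below 1 FPKM in fhy1-1 and all tested genes, with the number of members above its bar. Chromosome 2 holds 10 members, 22.2% of the group against 15.8% of tested genes.

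No member had another member within 50 kb. ProT3 and UGT73C1, on chromosome 2, were the closest pair at 65.1 kb. LBD26 and AT3G28220 were 147.9 kb apart and FRO7 and AT5G50100 163.1 kb apart. BBX32 and BBX31 were 295.6 kb apart on chromosome 3. The median distance from a member to its nearest member was 1079 kb.

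The tested genes on either side were looked at next, since the rule used no value of theirs. Of 84 such neighbours outside the members' own loci, 21 were called higher (25.0%, beside 9.92% of all tested genes) and 6 lower (7.14%, beside 12.9%). These 21 lay beside 19 of the 45 genes. Over the 20 of them with a level above 0 in both genotypes, the median log2 difference was 0.65, and 7 were at least 2 times higher. The remaining neighbour, MRU1 beside AT5G35480, was listed at 0 in fhy1-1 and stood at 0.598 FPKM in the GFP-FHY1 line, so it has no fold. No test of this share was made. Genes side by side can share reads at their edges when strand is not counted, and this was not tested.

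Several of the neighbours called higher are known genes of greening or close relatives of the member. Other neighbours from the family of the member were not called, namely FBA7, FRO6, SQP2, GA3OX4, AT2G36770 beside UGT73C1 and CYP71B22 beside CYP71B20. The phototropin gene PHOT1, beside AT3G45820, was among those called lower and fell from 88.1 to 62.8 FPKM. PSY, phytoene synthase of the carotenoid pathway, lies 187 bp from GSTF12 on the opposite strand and rose from 27.1 to 85.5 FPKM. PSAL, a photosystem I subunit, lies 8470 bp from AT4G12830 and rose from 146.7 to 306.5 FPKM. CSLB04, a cellulose synthase-like gene 1089 bp from AT2G32550, rose from 1.98 to 10.3 FPKM. CYP71B19 beside CYP71B20 rose from 2.41 to 3.89 FPKM, CYP81D5 beside CYP81H1 from 1.72 to 3.29 FPKM, and AT5G24155 beside SQP1 from 5.47 to 14.0 FPKM. AT3G28270, 11376 bp from AT3G28220, rose from 0.0846 to 1.19 FPKM, and the cyclin gene CYCP2;1 beside BBX31 from 6.28 to 15.4 FPKM.

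**Figure D5:**
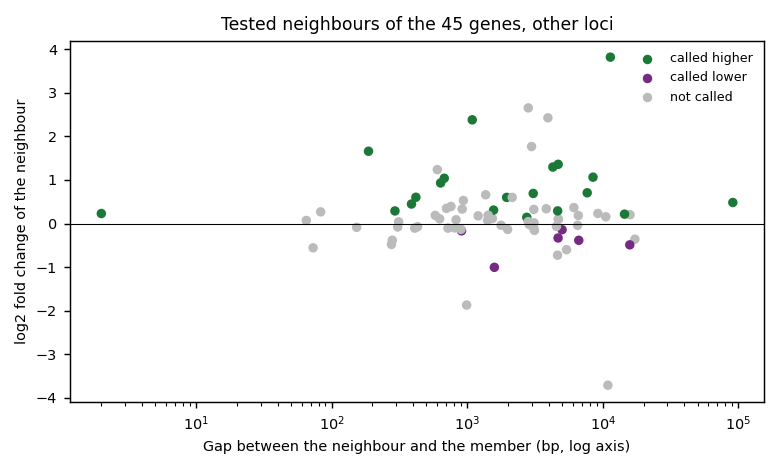
Log2 difference (GFP-FHY1 line over fhy1-1) of the tested neighbours of the 45 genes against the gap to the member in bp on a log axis, for the 79 neighbours in other loci with a level above 0 in both genotypes. Called neighbours, 20 higher in green and 6 lower in purple, occur at gaps from 2 bp upward.

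In 6 cases the deposited table gives a member and a gene on the opposite strand 1 merged locus, so their reads could be told apart only by strand or exon. The pairs were AT1G22690 with AT1G22700, ProT3 with AT2G36580, AT4G12830 with AT4G12840, AT5G42760 with AT5G42765, AT5G55570 with AT5G55580 and cPT4 with cPT5. The partner of AT5G42760 stood at 20.2 and 20.1 FPKM, and that of ProT3 fell from 80.1 to 66.5 FPKM, so neither moved with the member. The partner of AT5G55570 rose from 6.07 to 9.11 FPKM and that of AT1G22690 from 45.2 to 53.7 FPKM, both by less than the member. AT4G12840 at 2.17 and 2.78 FPKM and cPT5 at 0.619 and 0.437 FPKM were not called.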

How the data were processed

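RNA was sequenced from 6 libraries, 3 per genotype, with a column-based RNA kit and the standard Illumina preparation for mRNA, per the labels. Per the submitters' processing notes, Bowtie and TAIR10 were used; versions, handling of strand and the dispersion model are not stated there. The authors' deposited table has a Cuffdiff layout, per the file headers, and its levels were read as FPKM, 1 per gene and genotype, combined over replicates by the authors. The deposited log2 fold change was recomputed as log2 of the ratio. The authors' deposited p-value and q-value come from a deposited statistic, a score whose ratio to the fold change gave the standard errors.

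Of 33557 genes, 23937 were tested by the authors on chromosomes 1 to 5. Names, products, lengths and strands came from the TAIR10.1 RefSeq annotation, which held 99.7% of tested genes. Table coordinates, written from 1, are TAIR10. Of 26687 RefSeq coding spans, 95.9% lay inside the table's locus, so TAIR10.1 sequence was read at those positions. Promoter windows ran from 250 bases before to 50 after the table's start, or the RefSeq start where loci are shared. No test over libraries was made, since no values per library were at hand. The only retest across genes widened the error implied by the authors' statistic by an assumed spread, with Benjamini-Hochberg adjustment over all genes with both levels above 0. Members and lists were chosen with earlier results of these data known. Of 574 entries in 16 lists, 536 matched and 509 were tested. Genes named are FHY1, the members highest in the transgenic line or by ratio, list members, those at each limit, and relatives. Other members and neighbours were named after their values were seen. Alternatives changed each limit, the q threshold, pseudocount, centring, distance, promoter window and overlap. Scripts used Python 3.11.15 with pandas 2.3.3 and scipy 1.17.1.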

Additional observations from a re-analysis of the deposited data

How the results depend on the processing

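The size of the group depends on its limits. It was 25 genes with a fhy1-1 limit of 0.5 FPKM, 25 with at least 3 FPKM in the GFP-FHY1 line, 22 with a ratio of at least 8, and 102 when genes listed at 0 in fhy1-1 were kept. It was 62 with a limit of 2 FPKM, 53 with at least 1 FPKM, 55 with a ratio of at least 3, and 39 without overlapping loci. Of the 41 genes called higher, 39 were called at q below 0.01 (8.23% of all tested genes), 30 by Bonferroni (5.3%), and 35 of the 39 outside overlapping loci. Chosen after seeing the data, a replicate spread of 20% added to the implied error gave 38 calls (2.42% of tested genes), and one of 50% gave 16 (0.209%). The true spread is unknown, and the number of calls rests on it. The median log2 difference of 2.95 was 2.62, 2.08 and 1.66 with a pseudocount of 0.1, 0.5 and 1 FPKM, 3.00 when centred on the median gene, and 2.95 without overlapping loci. Members with another member nearby were 0 within 10 kb or 50 kb and 6 within 200 kb. The G-box count of 6 was 5 before the start only (8.22% of tested genes), 6 without overlapping loci, and 5 with RefSeq starts, an alternative chosen after seeing the data. No paired analysis was possible because the deposited levels are already combined over replicates and carry no replicate numbers, so no library could be left out either.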

Other observations

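The opposite pattern was rarer. Only 9 tested genes were above 0 and below 1 FPKM in the GFP-FHY1 line, at least 1.5 FPKM in fhy1-1 and at least 4 times higher in fhy1-1. By the authors' deposited table, 3 of these 9 were called lower, the cupin family gene PAP85, which belongs to the seed storage protein family, with 4.14 FPKM in fhy1-1 against 0.945 FPKM in the other genotype, the PLATZ transcription factor gene AT1G31040 at 2.93 and 0.548 FPKM, and the pseudogene AT2G10790 at 2.68 and 0.414 FPKM. The highest of the 9 in fhy1-1, AT2G13547, stood at 11.0 and 0.813 FPKM and was not called.

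Genes listed at 0 in fhy1-1 and at 1.5 FPKM or more in the GFP-FHY1 line numbered 57, and 29 had the reverse. The 57 were of another kind than the 45. They held 30 tRNA genes, 10 microRNA precursors, 5 small nucleolar RNAs and 8 protein-coding genes, with a median annotated length of 81 bases, and 0 were called in the authors' deposited table. Their highest level was that of the microRNA precursor MIR166c, 61.6 FPKM, with a deposited q of 0.0508. Several tRNA genes share the same value to every digit, such as 6.31 FPKM in 3 tRNA-Arg genes, and reads of such near-identical copies cannot be told apart.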
